A study of Mus musculus with 105 samples.

Results

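The cells described here were 356 single mouse embryonic stem cells taken 1 day after the start of differentiation. They were all capture sites of day 1 whose count table column held at least 40000 unique molecular identifiers (UMIs, short random tags read once per captured transcript) outside the ERCC spike-in RNAs. The rule kept 356 of the 400 sites of that day, and 1667 of the 2000 sites of days 0 to 4. Just inside the threshold lay cells of 40447, 40509 and 43060 UMIs, and just outside lay sites of 33253, 31961 and 30578 UMIs, with the emptiest site at 1161. The cells were not chosen by the level of any gene.

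The study followed the female TX1072 line, a cross of C57BL6/J (B6) with Cast/EiJ (Cast), in which a promoter that responds to doxycycline was placed before Xist, the RNA that starts X inactivation, on the B6 X chromosome, and the matching transactivator was placed in the Rosa26 locus. It is 1 clone of 1 cross. Day 0 cells grew in serum with Lif and 2i, that is, an inhibitor of Gsk3 (CT-99021) and an inhibitor of MEK (PD0325901), while day 1 and day 2 cells had spent that time in serum without Lif and 2i on fibronectin. Single cells came from 1 culture per day and 10 capture columns of 40 rows on 1 chip, whereas bulk RNA was sequenced from 3 TX1072 differentiations started on different days. The same 40 row barcodes served every column by design, and another compartment of each chip held a different cell type.

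The median day 1 cell had 123204.5 UMIs on 6253.5 genes, and the richest had 224156. Days 0 and 2 gave 325 and 369 cells over the same minimum, with medians of 137374 and 124701 UMIs. The median of ERCC UMIs per cell was 168 on day 1, against 406 on day 0 and 225 on day 2. The 3 bulk libraries of day 1 held 34277448, 39628784 and 32931203 reads assigned to genes.

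Before any gene is described, 3 features of these libraries need stating. Firstly, the day 1 libraries were sequenced in a high output and in a rapid run, and the day 1 table holds more than 1 count of the tags. A UMI of 5 bases allows 1024 tags per gene and cell, and no value of the cells of days 0, 2, 3 and 4 exceeded this (highest 1024, 1021, 1024 and 1024). On day 1, 661 values in 342 of the 356 cells and in all 10 columns did, with a highest of 2012 and none over 2048. They belonged to 10 genes, led by mt-Rnr2 (339 cells), mt-Rnr1 (271) and Gm42418 (37), so that the UMIs of these abundant RNAs are limited by the number of tags. How many molecules were counted again on day 1 was not tested. Among genes of 0.01 to 0.05 UMIs per cell, gene and cell pairs with exactly 2 UMIs numbered 0.137 times those with exactly 1 on day 1, 0.106 on day 0 and between 0.129 and 0.132 on days 2 to 4. Secondly, UMIs came in groups on every day. The 2501 genes found in 2 to 5% of day 1 cells averaged 3.92 UMIs in the cells where they were found, when independent UMIs at that frequency would average 1.02. The 17 ERCC sequences found in 2 to 40% of cells averaged 8.64 UMIs where found, against 1.09 for independent UMIs. A UMI was therefore not 1 independent molecule, and the counting intervals below, which cover counting error only, are too narrow. Thirdly, capture column 2 stood apart from the other 9 columns, with more Mt1 and Rpph1 and less mitochondrial RNA. Results that rest on those genes are given with and without it.

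Mouse embryonic stem cells in 2i and Lif are held in the naive state, which corresponds to the epiblast of the blastocyst before implantation. Lif acts through Stat3, the Gsk3 inhibitor mimics Wnt signalling, and the MEK inhibitor blocks the ERK branch of FGF signalling. When these are removed, naive transcription factors such as Nanog, Klf4, Tfcp2l1 and Esrrb are known to be lost, and genes of the formative or postimplantation epiblast, including the de novo DNA methyltransferases Dnmt3a and Dnmt3b and the POU factor Pou3f1, are known to be switched on. Day 1 lies between these states.

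All 4 marker genes were present in the day 1 cells, at levels between those of days 0 and 2. Levels were taken from all UMIs, whereas each share of cells with a UMI was counted, here and below, after every cell had been reduced at random to 40000 UMIs, unless all UMIs are named. Dnmt3a (GRCm38 chr12:3806007-3914443) had 39.2 UMIs per 1000000 summed UMIs (CPM) on day 0, 312 on day 1 (exact Poisson 95% interval 307 to 317) and 642 on day 2. Over the 10 columns of day 1 it ranged from 280.2 to 416 CPM with a median of 304, and at least 1 UMI was found in 96.6% of cells. Column 3 gave the highest of these values. Dnmt3b (chr2:153649450-153687730), the more abundant of the pair, had 179, 666 and 1445 CPM on days 0, 1 and 2. Its columns lay between 591 and 807 CPM, and it was found in every one of the 356 cells. Pou3f1 (chr4:124656807-124660655), also known as Oct6, was the least abundant, with 14, 56.5 and 107 CPM and a UMI in 59.6% of day 1 cells. Esrrb (chr12:86361117-86521628), an orphan nuclear receptor of the naive network, went the other way, from 369 CPM on day 0 to 233 on day 1 and 42.4 on day 2, and 95.8% of day 1 cells still had a UMI of it. With all UMIs of each cell the shares were 98.3% for Dnmt3a, 100% for Dnmt3b, 77.8% for Pou3f1 and 98% for Esrrb. No column of day 1 reached the day 0 or the day 2 value of any of the 4 genes.

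**Figure D1:**
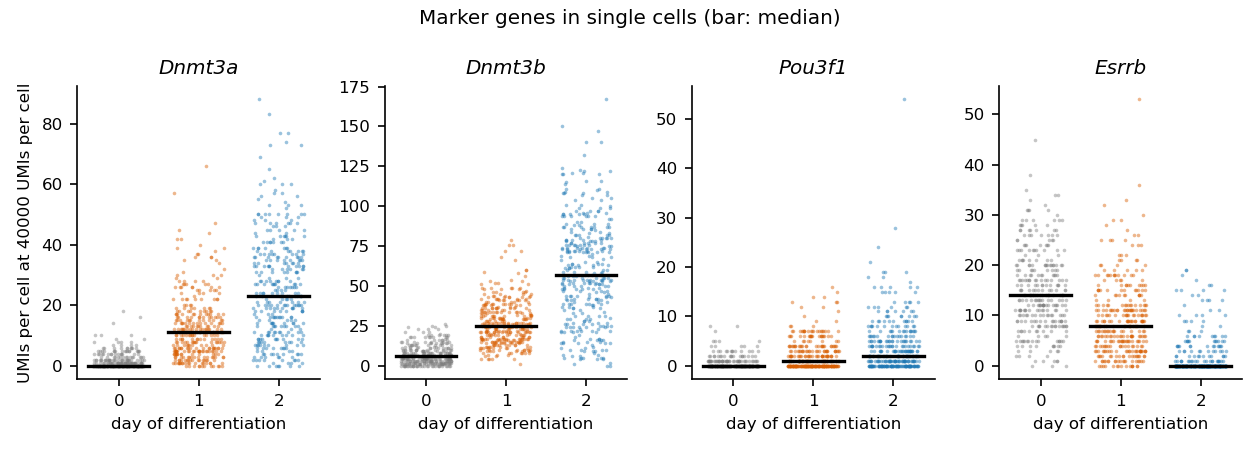
UMIs of Dnmt3a, Dnmt3b, Pou3f1 and Esrrb in each single cell of days 0, 1 and 2 after every cell was reduced at random to 40000 UMIs, with 1 point per cell and a bar at the median. Day 1 medians were 11, 25, 1 and 8 UMIs, and the day 1 cells form 1 cloud between those of days 0 and 2 for each gene, with overlap on both sides.

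With 1 culture per day the single cells allow no test between days, so the replicated bulk libraries were used for that. In bulk, the 3 libraries of day 0 had 58.7, 51.9 and 56 CPM of Dnmt3a, those of day 1 472, 422 and 418 and those of day 2 1121, 1073 and 1191, with no overlap between days. The log2 difference of day 1 from day 0 was 2.98 ± 0.10 (SE, n = 3 against 3, edgeR adjusted p = 3.9e-13). Dnmt3b rose by 1.79 ± 0.13 on the log2 scale (edgeR adjusted p = 3.7e-09) and Pou3f1 by 1.56 ± 0.18 (edgeR adjusted p = 8.8e-07). Esrrb decreased by 0.75 ± 0.18 in the same comparison (edgeR adjusted p = 0.0023). Across all 18871 genes tested in bulk, 4444 (23.5%) were higher and 4419 (23.4%) lower on day 1 than on day 0 at an adjusted p under 0.05 (47% in either direction), so that a call in itself was common, and the size of a change says more than its call. From day 1 to day 2, 3827 genes (20.3%) were higher and 3576 (18.9%) lower (39.2% in either direction). The comparisons share the day 1 libraries, and in bulk RNA fewer cells expressing a gene cannot be told apart from less RNA per cell.

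Naive genes had lost much of their RNA by day 1, but not all of it. The 20 naive genes summed to 7819 CPM on day 0, 3612 on day 1 and 1489.6 on day 2 in the single cells, with day 1 columns between 3313 and 3874. Of the 20, 16 were more than 1.5-fold lower and 3 more than 1.5-fold higher than on day 0, where 20.2% and 16.8% of the 9283 genes with 10 CPM on either day passed those limits. In bulk, 16 fell, 3 rose and 1 did not pass the test, where 23.4% of all genes tested fell and 23.5% rose. The median log2 difference of the list was -1.36, beside -0.01 over all genes tested.

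Tfcp2l1, a target of Lif and Stat3 that maintains naive cells, had 2166, 2388 and 2229 CPM in the bulk libraries of day 0 and 281, 336 and 369 in those of day 1. It fell by 2.78 ± 0.14 on the log2 scale (edgeR adjusted p = 4.3e-11), and by a further 2.65 ± 0.14 to day 2. Prdm14, a repressor of differentiation, fell most among transcription factors of the list, from 167, 196 and 141 CPM to 12.7, 13.6 and 12 (log2 difference -3.71 ± 0.16, edgeR adjusted p = 6.1e-12), and a UMI of it remained in 10.4% of single cells. Nanog (358 CPM in single cells of day 0 and 59.97 on day 1), Klf4 (361 and 66.5) and Tbx3 (249.7 and 52.4) fell by 2.28, 2.76 and 2.74 in bulk on the log2 scale. These 3 factors were still found in between 51.7% and 59.8% of day 1 cells. Other members fell much less. Zfp42, also known as Rex1 and widely used as a naive reporter, went from 346, 347 and 311 CPM to 228, 244 and 242 in bulk, a log2 difference of -0.49 ± 0.09 (edgeR adjusted p = 2.5e-04), and 91% of day 1 cells had a UMI of it. Most of its loss came later, with a log2 difference of -1.85 ± 0.10 from day 1 to day 2. Esrrb had the same order, with -0.75 to day 1 and -2.39 to day 2.

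Gbx2, Nr0b1 and Manba, which were listed with the naive genes, were at their highest on day 1. Gbx2, a homeobox factor downstream of Stat3, had 3.62, 4.65 and 3.37 CPM in bulk on day 0, 28, 40.7 and 31.5 on day 1 and 2.93, 2.997 and 3.82 on day 2. It rose by 3.10 ± 0.21 and then fell by 3.36 ± 0.21 on the log2 scale (edgeR adjusted p = 1.2e-09 and 1.3e-09). Nr0b1, the X-linked orphan receptor Dax1, had 144, 350.1 and 43.2 CPM in the single cells of days 0, 1 and 2, and its columns of day 1 varied between 130.3 and 481. Its log2 differences in bulk were 1.26 ± 0.14 and -2.97 ± 0.15. Manba, the lysosomal beta-mannosidase, changed by 0.98 and -2.19. Fgf4, the main FGF ligand of these cells and the most abundant naive gene of day 1, had 560.0, 815 and 569.6 CPM in the single cells, but in bulk its difference of 0.28 ± 0.13 from day 0 did not pass the test (edgeR adjusted p = 0.089), although it did without the second library of day 1 (0.36). Dppa3, or Stella, a maternal effect gene that protects DNA from demethylation, was lowest on day 1. It had 56.8, 42.3 and 44.1 CPM in the bulk libraries of day 0, 4.13, 2.4 and 2.91 on day 1 and 14.8, 16.7 and 12.5 on day 2, with no overlap between days, and 12.1% of day 1 cells had a UMI.

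The formative genes had been switched on to different degrees. The 20 members summed to 694 CPM on day 0, 2379 on day 1 and 3704 on day 2. Of the 17 members with 10 CPM on either day, 15 were more than 1.5-fold higher and 1 more than 1.5-fold lower on day 1 than on day 0. Those limits were passed by 16.8% and 20.2% of the 9283 genes with 10 CPM on either day. In bulk 16 rose, 3 fell and 1 did not pass the test, and the median log2 difference was 2.06. Among all genes tested in bulk, 23.5% rose and 23.4% fell. Fgf5, the classical epiblast marker, went from 0.189, 0.114 and 0.0449 CPM in bulk on day 0 to 21.5, 16.3 and 12.7 on day 1 and 57.2, 40.2 and 37.2 on day 2. In single cells it had 33.1 CPM and was found in 32% of day 1 cells, against 0.615% of day 0 and 48.5% of day 2 cells (42.7%, 1.23% and 57.5% with all UMIs). Otx2, a homeobox factor that directs the exit from naive pluripotency, rose by 2.21 ± 0.17 on the log2 scale to day 1 (edgeR adjusted p = 5.8e-09) and did not pass the test from day 1 to day 2 (0.14 ± 0.16, edgeR adjusted p = 0.54). Pim2, a kinase, had 11.2, 13.4 and 15.5 CPM on day 0, 124, 123 and 109 on day 1 and 503, 487 and 559 on day 2, with log2 differences of 3.15 ± 0.13 and 2.12 ± 0.12 (edgeR adjusted p = 3.2e-12 and 4.9e-10).

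Tcf15, a basic helix-loop-helix factor linked to the start of differentiation, was highest on day 1. It had 22.5, 97.9 and 15.8 CPM in single cells of days 0, 1 and 2. Its bulk libraries had 8.11, 9.08 and 9.26 CPM on day 0, 31.2, 36.7 and 31.4 on day 1 and 6.81, 8.13 and 6.79 on day 2, with log2 differences of 1.91 ± 0.15 and -2.19 ± 0.15 (edgeR adjusted p = 7.5e-09 and 3.5e-09). Epha4, an ephrin receptor, went from 290.3, 332 and 233 CPM to 58.4, 59.4 and 56.7 and fell by 2.29 ± 0.14 (edgeR adjusted p = 4.9e-10). Zic2 and Cdh2 were the other members that fell.

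Of the DNA methylation machinery, the catalytic and regulatory subunits of de novo methylation rose together. Dnmt3l, the inactive partner that stimulates Dnmt3a and Dnmt3b, was the most abundant of the 10 genes on day 1. It had 28.9, 44.8 and 33.8 CPM in bulk on day 0, 1348, 1602 and 1416 on day 1 and 919.8, 1240.3 and 1297 on day 2, a rise of 5.35 ± 0.26 on the log2 scale (edgeR adjusted p = 2.6e-11). From day 1 to day 2 it did not pass the test (-0.34 ± 0.22, edgeR adjusted p = 0.24), whereas Dnmt3a and Dnmt3b rose further, by 1.37 and 1.42. Dnmt1, the maintenance enzyme, had 307 CPM in single cells of day 0 and 315 on day 1, and in bulk its difference was 0.15 ± 0.12 (edgeR adjusted p = 0.3). Over all genes tested, 23.5% rose and 23.4% fell to day 1. Of the 10 genes of this list 4 rose (Dnmt3l, Dnmt3a, Dnmt3b and Zfp57), Tet2 fell, and 5 did not pass the test. Among these 5, Mbd3, a subunit of a chromatin remodelling complex, had a log2 difference of 0.32 ± 0.14 (edgeR adjusted p = 0.071) and passed with the replicate number as a block (edgeR adjusted p = 0.025).

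**Figure D2:**
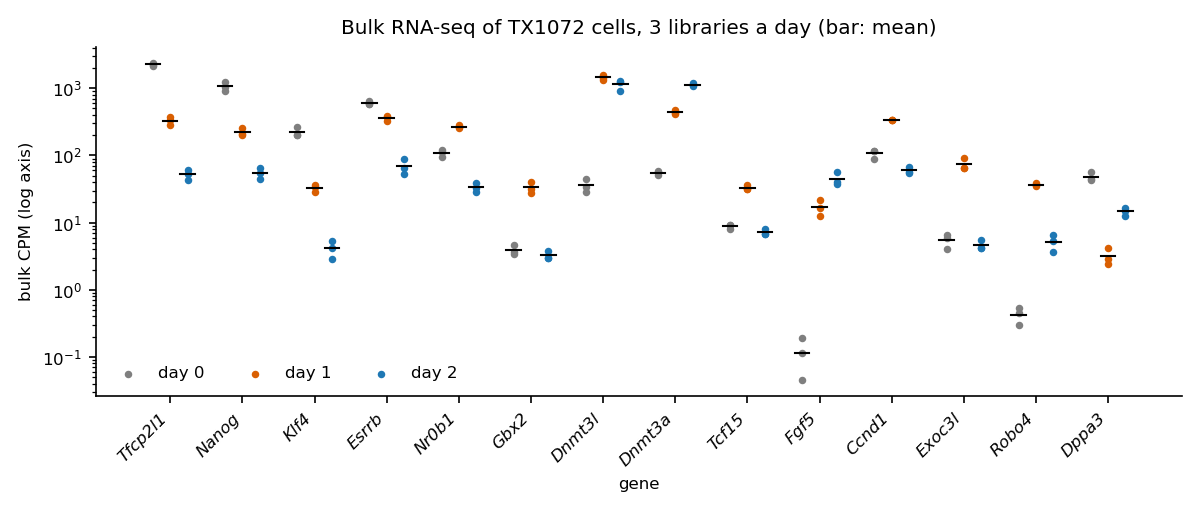
Bulk expression of 14 genes in the 3 TX1072 libraries of days 0, 1 and 2, in CPM on a log axis, with 1 point per library and a bar at the mean. Gbx2, Nr0b1, Tcf15, Ccnd1, Exoc3l and Robo4 were highest on day 1, Dppa3 was lowest on day 1, and Tfcp2l1, Nanog, Klf4 and Esrrb fell at each step.

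Lists of genes known to respond to the removed factors were examined next. Targets of ERK, the kinase downstream of MEK, rose in 11 of 18 members, fell in 2 and did not pass the test in 5. Over all genes tested, 23.5% rose and 23.4% fell. The 2 targets that fell were Spry2 (log2 difference -0.95 ± 0.13, edgeR adjusted p = 1.3e-05) and Fos (-1.74 ± 0.41, edgeR adjusted p = 0.0018). With the replicate number as a block 12 rose, with Spred2 added (edgeR adjusted p = 0.081 without and 0.030 with it). The median log2 difference was 1.17. Dusp6, a phosphatase that feeds back on ERK, had 1.19, 2.69 and 2.47 CPM in bulk on day 0 and 86.5, 97.6 and 92.5 on day 1, with a log2 difference of 5.49 ± 0.22 (edgeR adjusted p = 1.8e-12). In single cells it reached only 50.7 CPM, and 51.4% of cells had a UMI. Ccnd1, the G1 cyclin D1, was the most abundant target and was highest on day 1, with 115, 117 and 89.6 CPM in bulk on day 0, 339.6, 338 and 336 on day 1 and 68.4, 56 and 55.5 on day 2. It rose by 1.65 ± 0.12 and fell by 2.49 ± 0.13 (edgeR adjusted p = 5.3e-09 and 1.8e-10). Phlda1, another early response gene, followed the same course at a lower level, with 8.62, 47.6 and 7.95 CPM in single cells. Etv5, a target present in the 2i medium as well, did not pass the test between days 0 and 1 (-0.17 ± 0.12, edgeR adjusted p = 0.25).

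Targets of Wnt signalling fell in 11 of the 14 members tested, rose in 2 and did not pass the test in 1, with a median log2 difference of -1.04. Among all genes tested, 23.4% fell and 23.5% rose. The most complete loss was that of Sp5, a transcription factor that is a direct target of beta-catenin and its TCF partners. Sp5 had 18.2, 25.8 and 20.8 CPM in the bulk libraries of day 0 and 0.0291, 0 and 0.0607 in those of day 1. In single cells it had 57.7 CPM on day 0 and only 0.0225 on day 1, where a single UMI was found among all 356 cells. On day 2 it had 0.67 CPM in single cells and 0.038, 0.0285 and 0 CPM in bulk, where the difference from day 1 did not pass the test (edgeR adjusted p = 0.88). Its promoter is shown because the TCF core, CTTTGA, occurs in it at 2 places. The sequence below runs from 250 bases before to 30 bases after the RefSeq start (GRCm38.p6, chr2:70474673-70474952), with each CTTTGA on the strand shown in capitals.
Sp5: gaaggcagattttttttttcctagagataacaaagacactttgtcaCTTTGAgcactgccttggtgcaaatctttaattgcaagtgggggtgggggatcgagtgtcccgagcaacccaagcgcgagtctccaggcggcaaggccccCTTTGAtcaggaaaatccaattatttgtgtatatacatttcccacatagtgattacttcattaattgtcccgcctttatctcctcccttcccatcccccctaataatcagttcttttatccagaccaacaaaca
On either strand, at least 1 CTTTGA lies in the same 300-base window (250 before to 50 after the start) of 18.2% of the 27025 gene symbols with a promoter entry, so the match is a description of this sequence only. Not all Wnt targets lost their RNA. Axin2, a feedback inhibitor of the pathway, went from 44.8, 59.2 and 49.5 CPM in bulk to 26.8, 33.2 and 29.2 (log2 difference -0.78 ± 0.15, edgeR adjusted p = 2.5e-04) and fell further to day 2 (-1.93). Lef1, which is a partner of beta-catenin and also belongs to the formative list, rose by 3.04 ± 0.19 (edgeR adjusted p = 4.2e-10). Tcf7 was lower on day 1 than on either neighbouring day, with 31.6, 31 and 41, then 13.2, 11.7 and 13.6, then 34.1, 23.3 and 28.8 CPM in bulk.

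Targets of Lif and Stat3 fell in 8 of 10 members, with a median log2 difference of -2.74, the lowest of the signalling lists. The share that fell over all genes tested was 23.4%. Stat3 itself, which is its own target, went from 81.7, 109 and 77 CPM in bulk to 12.9, 14.5 and 13.3 and fell by 2.72 ± 0.13 (edgeR adjusted p = 2.2e-11). Gadd45g, a stress and differentiation gene, was the single member that rose, by 4.49 ± 0.30, and it had 21.3, 101 and 734 CPM in single cells of days 0, 1 and 2. Among BMP targets, Id1 and Id2, inhibitors of basic helix-loop-helix factors, rose together with the ligand Bmp4. Id2 had 6.06, 6.06 and 6.16 CPM in bulk on day 0, 165, 165 and 183 on day 1 and 77.7, 85 and 85.1 on day 2. Id1 rose by 3.97 ± 0.27 (edgeR adjusted p = 1.6e-09), and Bmp4 had 13.7, 59.4 and 12.7 CPM in single cells, with log2 differences of 2.93 and -2.42 in bulk. Smad7, an inhibitor of the pathway, fell by 1.83 ± 0.19. Id4, of the same family as Id1 and Id2, fell as well (log2 difference -2.18 ± 0.31), as did Bambi (-0.41 ± 0.13). Of the 8 genes in that list, 3 rose and 3 fell, beside the 23.5% and 23.4% over all genes tested. Id3 (0.70 ± 0.29, edgeR adjusted p = 0.053) passed the test with the replicate number as a block (edgeR adjusted p = 0.046).

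Within the Nodal pathway, 3 of 8 members rose and 3 fell, where 23.5% and 23.4% of all genes tested did so. The co-receptor Tdgf1, or Cripto, rose by 0.72 ± 0.09 (edgeR adjusted p = 5.9e-06) and was found in nearly every day 1 cell (99.7%). Lefty2, a secreted inhibitor of Nodal, had 350.4, 362 and 339 CPM in bulk on day 0 and 35.1, 17.2 and 18.9 on day 1, a log2 difference of -3.88 ± 0.38. The call of its relative Lefty1 (log2 difference -1.31 ± 0.45) was lost without library 2 of day 0 (-1.11), library 2 of day 1 (-1.10) or library 3 of day 1 (-0.89). Lefty1 returned from 26.5, 9.81 and 5.4 CPM on day 1 to 214, 102 and 66.6 on day 2, with a spread between the day 1 libraries of several fold, and was found in only 16.6% of day 1 cells. Of the 12 core pluripotency genes, 8 rose and 2 fell in bulk (Sox2 not without library 1 of day 0, -0.55), while Pou5f1 and Sall4 did not pass the test. Their summed level in the single cells was lower on day 1 than on day 0, at 5932, 4449 and 4390.3 CPM on days 0, 1 and 2. L1td1, an RNA-binding protein, rose from 467, 491 and 448 CPM to 1236, 1095 and 1309, and Dppa5a, the most abundant member, fell from 2081, 1869 and 1902 CPM to 1061, 987 and 1013. In the single cells Dppa5a alone went from 4168 to 1740.0 CPM.

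Some genes had their highest level on day 1 by a wide margin. They were taken by rank among genes with at least 20 CPM on 1 of the 3 days, so their pattern in the single cells is a description. Exoc3l, related to the exocyst subunit Exoc3, had 2.76, 49.7 and 1.83 CPM in single cells of days 0, 1 and 2. In bulk it had 4.03, 5.87 and 6.61 CPM on day 0, 64.2, 92.4 and 64.1 on day 1 and 5.44, 4.22 and 4.17 on day 2. The gain of 3.76 ± 0.20 and the loss of 4.00 ± 0.20 on the log2 scale both passed the bulk test (edgeR adjusted p = 5.5e-11 and 1.4e-10). Bulk libraries 2 and 3 came from other differentiations than the single cells, and they had the same order of days.

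Robo4, a Roundabout receptor best known from endothelium, had no UMI among the 325 cells of day 0, 44.2 CPM on day 1 and 3.2 CPM on day 2. Its bulk libraries gave 0.297, 0.53 and 0.449 CPM on day 0, 35.7, 39 and 34.6 on day 1 and 6.54, 3.68 and 5.4 on day 2, with a log2 difference of day 1 from day 0 of 6.45 ± 0.26 (edgeR adjusted p = 2.2e-12). Hif3a, a hypoxia-inducible factor subunit, had 1.15, 28.4 and 4.22 CPM, and its bulk libraries of day 1 (14.2, 15.2 and 16.2 CPM) lay above all those of days 0 and 2. Itgb7, the integrin beta 7 chain, followed the same order, with 24.1 CPM on day 1, 2.3 on day 0 and 3.49 on day 2. Dgkeos, a transcript opposite to Dgke, had 29 CPM against 1.75 and 0.894. Whether bulk counting used the strand is not given in the sources used here, so its bulk reads cannot be told apart from those of Dgke. D330045A20Rik had 26.9 CPM against 0.0442 and 2.32 and has no row in the bulk table used here. Each of these 6 genes was found in between 27.8% and 52.8% of day 1 cells.

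Other genes had already gone from absent to abundant by day 1 and stayed on. Enpp3, an ectonucleotidase, had 1 UMI among all day 0 cells (0.0221 CPM), 80.6 CPM on day 1 and 98.2 on day 2, and 64% of day 1 cells had a UMI. In bulk it went from 0.189, 0.114 and 0.404 CPM to 108, 104 and 96.9 (log2 difference 8.82 ± 0.21, edgeR adjusted p = 5.6e-15). Car4, a carbonic anhydrase, had no UMI on day 0 and 35.6 and 168 CPM on days 1 and 2. Col6a5, a collagen VI chain, had no UMI on day 0 either, 31.4 CPM on day 1 and 8.92 on day 2, and fell by 1.32 ± 0.15 between days 1 and 2 in bulk.

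Genes lost by day 1 included the free fatty acid receptors Ffar2 and Ffar3, the homeobox gene Hoxc9 and the zinc finger factor Gata2. Ffar2 had 23.4 CPM on day 0 and no UMI in any day 1 cell. Ffar3 went from 30.9, 32.5 and 60.9 CPM in bulk to 0.291, 0.371 and 0.303. Gata2 had 31.3, 44.7 and 50.3 CPM in bulk on day 0, 0.349, 0.346 and 0.273 on day 1 and 2.09, 1.31 and 2.04 on day 2, so that it was lowest on day 1, a log2 difference of -7.00 ± 0.27 followed by 2.46 ± 0.30 (edgeR adjusted p = 1.8e-12 and 2.9e-06). Pdlim4, Cpsf4l and Mogat2, an actin-associated protein, a homologue of a cleavage factor subunit and a lipid enzyme, were likewise lowest on day 1. Mogat2, for example, had 29.4, 1.57 and 12.1 CPM in single cells and 26.3, 19.6 and 24.4, then 1.4, 1.04 and 1.3, then 11.2, 8.65 and 6.73 CPM in bulk.

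Markers of other cell types were at low summed levels, and in bulk some members rose and others fell in each of the 5 lists of streak, neural, primitive endoderm, trophoblast and fibroblast genes. Their counts are to be read beside all genes tested, of which 23.5% rose and 23.4% fell to day 1. The 12 primitive streak genes summed to 38.7 CPM on day 1 and 22.6 on day 0, Eomes gave 24.5 of the former, and 2 of the 12 had no UMI. In bulk, 3 of the 9 members tested rose and 2 fell, and the ligand Fgf8 passed only with the replicate number as a block (edgeR adjusted p = 0.27 without and 0.042 with it). T, Brachyury, the defining streak factor, fell in bulk, whereas Eomes and the receptor Kdr rose and then fell. Eomes, a T-box factor of streak and trophoblast, had 2.27, 3.56 and 2.97 CPM in bulk on day 0, 32.1, 34.7 and 30.9 on day 1 and 7.72, 6.48 and 7.3 on day 2. Kdr, the VEGF receptor of mesoderm and endothelium, had 0.135, 0.114 and 0.404, then 8.18, 8.43 and 8.83, then 0.304, 0.1998 and 0.191 CPM and a UMI in 7.58% of day 1 cells. The 12 neural genes summed to 65.8 CPM, against 75.1 on day 0, with Tubb3 highest (25.5). In bulk, 3 of the 8 members tested rose and 2 fell. Pax6, a homeobox factor of neural and eye development, went from 0.189, 0.189 and 0.135 CPM on day 0 to 4.22, 4.23 and 3.22 on day 1, a log2 difference of 4.45 ± 0.46 (edgeR adjusted p = 3.2e-07). Neurod1 rose as well (4.02), as did Map2, a microtubule protein of neurons (0.74), while Olig2, an oligodendrocyte lineage factor, and the intermediate filament gene Nes fell by 2.03 and 0.76. The early neural factor Sox1 had 3.3 CPM in single cells and did not pass the test.

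Primitive endoderm genes summed to 105 CPM, against 149 on day 0, with Col4a1 highest (37.6) and columns between 85.2 and 143. Of the 14 members, 4 rose and 3 fell in bulk, where 23.5% and 23.4% of all genes tested did so. The risers were Cubn, an endocytic receptor (2.93), Sox7 (2.68), the laminin chain Lamb1 (0.90) and the adaptor Dab2 (0.50), whose call was lost without library 1 (0.35) or 2 (0.47) of day 0 or library 2 (0.51) or 3 (0.46) of day 1, and Lama1, another laminin chain, fell from 195, 258 and 185 CPM to 31.4, 40.2 and 32.8. Of the factors that define the lineage, Gata4 and Sox17 did not pass the test, and Gata6 (log2 difference 1.52) passed only with the replicate number as a block (edgeR adjusted p = 0.069 without and 0.022 with it). Trophoblast genes summed to 141 CPM, against 151 on day 0, with Gata3 highest (36.5) and 3 of 12 at 0. In bulk, 5 of the 11 members tested rose and 5 fell, and with the replicate number as a block 4 rose, without Hand1 (edgeR adjusted p = 0.048 and 0.059). Ascl2, a basic helix-loop-helix factor, and Plet1, a surface protein, rose by 2.79 and 1.47, whereas Tfap2c, which is also expressed in naive and germ cells, fell by 4.27 and Cdx2, a defining factor of trophoblast, by 6.52.

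Fibroblast genes were listed because the growth of stem cells can involve feeder cells, although these cells grew on gelatin and then on fibronectin. The list summed to 47.1 CPM, against 33.1 on day 0 and 54.6 on day 2, and the surface protein Thy1 gave 32 of the day 1 value. In bulk, 5 of the 10 members tested rose and 3 fell, where 23.5% and 23.4% of all genes tested did so. Thy1, the factor Twist1 and the protease Mmp2 rose by 1.68, 1.44 and 0.91 on the log2 scale, Fbn1 by 0.59, and Dcn, the matrix protein decorin, went from 0, 0 and 0.18 to 2.71, 1.58 and 2.03 CPM. The collagens Col1a1 and Col1a2 fell by 2.29 and 2.77 and were at 1.39 and 1.44 CPM in the single cells, and the receptor Pdgfrb fell by 1.77. Of the 2-cell-like genes, 13 of the 14 in the table had no UMI in any day 1 cell, and Zfp352 gave 0.157 CPM. For each of the 13, 0 of 356 cells allows a share of up to 0.843% of cells with a UMI, which covers counting error only and sets no limit on the share of cells that express the gene. Actin and smooth muscle genes rose in 12 of 17 members tested and fell in 1, with a median log2 difference of 1.71, beside the same shares over all genes (23.5% and 23.4%). Tpm1, a tropomyosin and the most abundant of them, went from 73.4, 75.3 and 65.6 CPM in bulk to 157, 163 and 145, and Cnn2, a calponin, from 7.79, 10.8 and 8.4 to 35.1, 43.4 and 36.1 before it returned to 16.1, 15.4 and 12 on day 2.

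Cell cycle genes are given beside the shares over all genes tested, of which 23.5% rose and 23.4% fell to day 1. From day 1 to day 2 these shares were 20.3% and 18.9%. Of 20 S phase genes 4 rose, 3 fell and 13 did not pass from day 0 to day 1, and of 20 genes of G2 and M phase 2 rose, 3 fell and 15 did not pass (2 and 6 with the replicate number as a block). The median log2 differences were -0.10 and -0.06. From day 1 to day 2, 0 S phase genes rose and 6 fell, and 1 gene of G2 and M phase rose and 2 fell (3 and 2 with the block). Ccne1 and Cdc20 rose and were highest on day 1. Ccne1, cyclin E1 of the G1 to S transition, had 214, 244 and 228 CPM in bulk on day 0, 418, 456 and 417 on day 1 and 279, 287 and 269.6 on day 2 (log2 difference of day 1 from day 0 0.91 ± 0.09, edgeR adjusted p = 2.0e-07). Cdc20, the activator of the anaphase-promoting complex, had 209.8, 299 and 219, then 564, 760.1 and 591, then 345, 365 and 325 CPM. Across the single cells of day 1, the summed S phase and G2 and M phase lists ran against each other, with a Spearman rho of -0.27 over 356 cells, against -0.36 on day 0 and -0.23 on day 2.

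The list of p53 and stress genes mixes p53 targets with genes of other stress responses. More of its members fell than rose to day 1, and more rose than fell afterwards. Of 14 members, 7 fell and 1 rose from day 0 to day 1, while 9 rose and 3 fell from day 1 to day 2. Over all genes tested, 23.4% fell and 23.5% rose to day 1, and 20.3% rose and 18.9% fell afterwards. The 7 that fell first were Cdkn1a, Phlda3, Bbc3, Ddit3, Atf3, Dnajb1 and Chac1, and Hspa1a rose. The 3 that fell afterwards were Hspa1a, Hspa1b and Dnajb1. Cdkn1a, the cell cycle inhibitor p21, had 119, 116 and 176 CPM in bulk on day 0, 33.6, 42.2 and 43.3 on day 1 and 89.9, 87.4 and 121 on day 2, with log2 differences of -1.78 ± 0.19 and 1.33 ± 0.19 (edgeR adjusted p = 4.1e-07 and 1.8e-05). Mdm2, the ubiquitin ligase of p53 and itself a target, did not pass the test to day 1 (0.11 ± 0.12, edgeR adjusted p = 0.5) and rose by 1.05 to day 2.

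Variation between the cells of day 1 was measured by the Fano factor, the variance over the mean, after each cell had been reduced to 40000 UMIs. The median over 8107 genes with a mean of at least 0.5 UMIs was 4.70 on day 1, 4.54 on day 0 and 4.24 on day 2, when independent counts of equal mean would give 1. ERCC RNA, which was added in equal amount to every site, gave a median of 8.88 on day 1 at 100 ERCC UMIs per cell, 4.13 on day 0 and 5.81 on day 2. Reduction to 100 kept a larger part of the ERCC UMIs on day 1 (median 168 per cell) than on days 0 (406) and 2 (225). These values are therefore not alike between days. Without this reduction, on scaled counts, the ERCC medians were 17.4 on day 1, 15.2 on day 0 and 13.8 on day 2. Those of the genes were 12.3, 13.1 and 10.6. The day 1 table holds more than 1 count of the tags, and the part of this in the differences between days was not tested. The Fano factor of single genes was therefore read only relative to the 200 genes nearest in mean, and 74 of the 8107 genes (0.913%) were more than 2 times as variable as these, against 62 on day 0 and 139 on day 2.

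**Figure D3:**
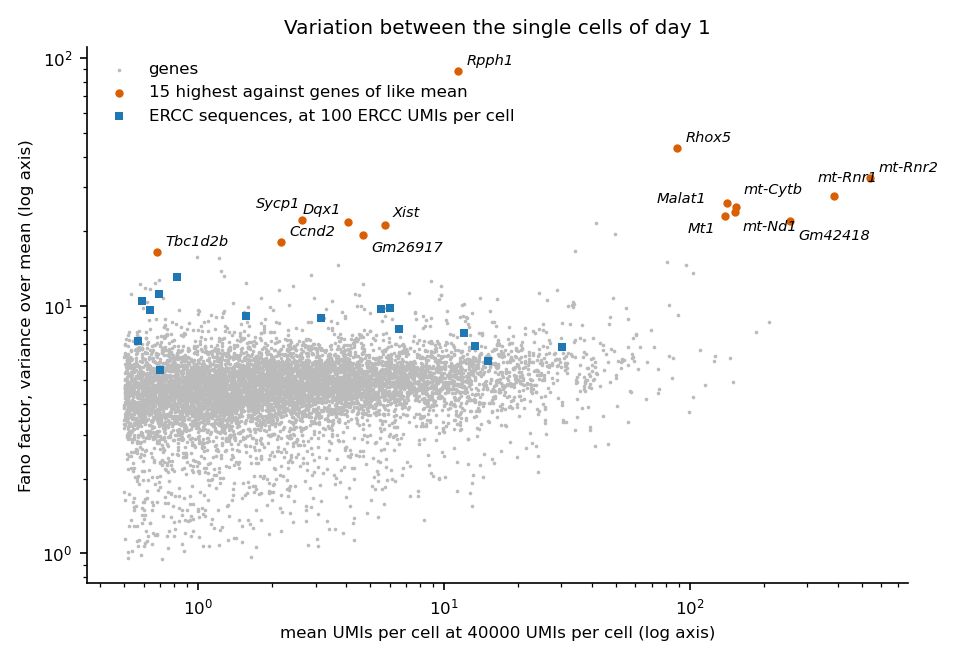
Fano factor (variance over mean) against mean UMIs per cell for 8107 genes across the 356 cells of day 1, each reduced to 40000 UMIs, with both axes logarithmic. Orange points are the 15 genes most variable against genes of like mean. Blue squares are 15 ERCC sequences across the 312 cells with at least 100 ERCC UMIs, each reduced to 100 ERCC UMIs, and lie between 5.51 and 13.1. Genes and ERCC sequences were reduced by different proportions of their UMIs, so their heights cannot be compared directly.

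Of the 15 most variable genes, 4 were mitochondrially encoded (mt-Rnr2, mt-Rnr1, mt-Cytb and mt-Nd1), 2 were the repeat-like Gm42418 and Gm26917, which can share reads with ribosomal RNA, and 3 were the noncoding RNAs Malat1, Xist and Rpph1, the RNA subunit of RNase P. The other 6 were Rhox5, Sycp1, Dqx1, Mt1, Tbc1d2b and Ccnd2. Rpph1 was the most variable of all, at 17.5 times the Fano factor of genes of like mean, but 1 cell with 538 UMIs, against 161 in the next, gave most of this. Without that cell its value was 4.48, and without column 2 it was 18.9. Leaving out column 2 took mt-Rnr2 from 5.54 to 5.70 times genes of like mean, mt-Rnr1 from 4.68 to 4.87, mt-Cytb from 4.26 to 3.90, mt-Nd1 from 4.04 to 3.76 and Mt1 from 3.91 to 3.11. Tbc1d2b owed its place to 1 cell of 57 UMIs, against 11 in the next, and had 0.994 without it. Without its highest cell, Ccnd2, the cyclin D2 gene, went from 3.80 to 2.56, Gm42418 from 3.73 to 2.55 and Gm26917 from 3.92 to 2.53. Between 10 and 14 of the 15 genes were kept under the other settings. The UMIs of mt-Rnr2 and mt-Rnr1 are limited by the number of tags, so their variation is uncertain.

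Rhox5, an X-linked homeobox gene of the reproductive homeobox cluster, was next, at 7.34 times genes of like mean and 7.25 without its highest cell. It had 2211 CPM on day 1 against 843 on day 0 and 1791 on day 2, with columns between 1953 and 2503. At 40000 UMIs per cell, its 10th percentile was 9.5, its median 87 and its 90th percentile 174 UMIs, and 67 of the 356 cells had 20 or fewer. By allele, 11 of the 356 cells (3.09%, exact binomial 95% interval 1.55 to 5.46%) drew more than 80% or less than 20% of their X-linked allelic UMIs from B6, 9 of them mostly from Cast and 2 mostly from B6. Those 11 cells had a median of 4 Rhox5 UMIs and the others 89. Of the 67 low cells 8 were among the 11. Without the 11, the relative Fano factor of Rhox5 was 7.04. Rhox5 had no UMI assigned to either allele.

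Sycp1, a protein of the meiotic synaptonemal complex, and Dqx1, a helicase-like gene, were variable at low means. Sycp1 was found in 33.4% of day 1 cells with a median of 0 and a highest value of 73 UMIs at 40000 per cell, and it went from 7.82 CPM on day 0 to 72.4 on day 1. Its bulk libraries of day 1 were themselves far apart, at 32.6, 6.47 and 27 CPM. Dqx1 was found in 44.9% of cells with a 90th percentile of 16 UMIs. Xist, the RNA that coats the inactive X, had a UMI in 63.5% of day 1 cells at 40000 UMIs per cell and in 74.4% with all UMIs. At 40000 UMIs it had a 90th percentile of 14 and a highest value of 104 UMIs. Of the formative and naive genes, Nr0b1 (2.02), Otx2 (1.78), Fgf4 (1.75), Spp1 (1.73), Tfcp2l1 (1.65) and Dnmt3a (1.63) had the highest relative Fano factors, and Sox4 (0.835), Pou3f1 (0.839), Manba (0.793), Foxd3 (0.653) and Etv1 (0.651) were among the lowest.

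UMIs of both naive and formative genes were found in every cell of day 1. At 40000 UMIs per cell the summed naive list had a median of 143 UMIs (quartiles 113 and 172) and ran from 42 to 345 in the day 1 cells. This sum includes Fgf4, Gbx2, Nr0b1 and Manba, which did not fall in bulk. Without these 4 genes, a choice made after their values were seen, the other 16 members had a median of 88 UMIs (quartiles 65 and 109) and ran from 25 to 305, against medians of 284 on day 0 and 22 on day 2. The formative list had a median of 93.5 UMIs (quartiles 71.8 and 118) and ran from 24 to 205. The medians on day 0 were 317 and 27, and on day 2 46 and 156. Across cells, the sums of both lists had a Spearman rho of 0.08 on day 0, -0.21 on day 1 and -0.36 on day 2. Within capture columns the day 1 value was -0.15. With the 16 naive members the values were 0.05, -0.28 and -0.45. These are descriptions over cells that share a culture and a chip.

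**Figure D4:**
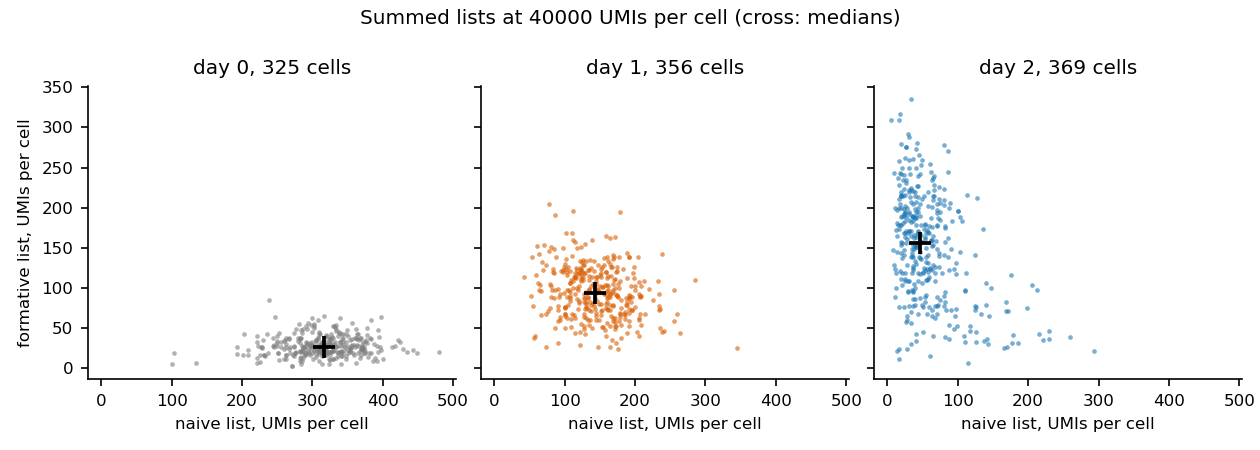
Summed UMIs of the 20 naive and the 20 formative genes in each cell of days 0, 1 and 2, at 40000 UMIs per cell, with 1 point per cell and a cross at the medians. The day 1 cells form 1 cloud around 143 naive and 93.5 formative UMIs, with no separate groups, while on day 2 a minority of cells high in naive and low in formative RNA extends along the horizontal axis.

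The markers ran with or against each other more weakly on day 1 than a day later. Dnmt3a and Dnmt3b had a rho of 0.06 on day 0, 0.19 on day 1 and 0.57 on day 2, and Dnmt3b and Esrrb of 0.06, -0.17 and -0.48. The naive and the core pluripotency sums had 0.11, 0.15 and 0.53. The genes outside both lists whose UMIs ran most closely with the naive sum on day 1 were Mylpf (rho 0.37), a myosin light chain, Calcoco2 (0.35), an autophagy receptor, Ooep (0.29), an oocyte and embryo protein, Wdr45 (0.29), an autophagy protein, and Tex264 (0.27), a receptor for autophagy of the endoplasmic reticulum. All 5 had less RNA on day 2 than on day 1, and Calcoco2 went from 696 CPM on day 0 to 235 on day 1 and 33 on day 2. The lowest were Skil (-0.29), a corepressor in the Nodal pathway, Xist (-0.27), Vrtn (-0.25), Ldha (-0.25), lactate dehydrogenase A, and Fth1 (-0.24), the ferritin heavy chain. All 5 had more RNA on day 2 than on day 1, and Vrtn had 0.619, 19.5 and 31.2 CPM on days 0, 1 and 2. Among the partners of Esrrb, Nanog came first, with a rho of 0.31 on day 1 and 0.08 and 0.44 on days 0 and 2.

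Apart from pluripotency, some small groups of genes varied together within day 1. The genes were picked after their values had been seen, and their correlations are descriptions. Chaperones of the endoplasmic reticulum are given first. Hspa5, also known as BiP, had 1030.1 CPM on day 1, and at 40000 UMIs per cell a 10th percentile of 13, a median of 37 and a 90th percentile of 70 UMIs, with a highest cell of 401. Its closest partner among 8106 genes was Hsp90b1, the chaperone Grp94, with a rho of 0.51 (0.53 within columns and 0.53 without column 2). Pdia6 (0.34), a protein disulfide isomerase, Manf (0.32), a protein that is secreted under endoplasmic reticulum stress, and Calr (0.29), the calcium-binding chaperone calreticulin, followed, and Canx, its membrane-bound relative, ranked 10th (0.21). Hspa5 and Hsp90b1 had a rho of 0.29 on day 0 and 0.50 on day 2.

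The unfolded protein response is known to act through a promoter sequence, the endoplasmic reticulum stress response element, in which CCAAT and CCACG are separated by 9 bases. The promoters of Hspa5 and Hsp90b1 are therefore given from 250 bases before to 30 bases after the RefSeq start, and those of their partners as 59 bases around the element. Capitals mark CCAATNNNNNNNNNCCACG on either strand. Hspa5 lies at chr2:34771840-34772119, Hsp90b1 at chr10:86705415-86705694 on the reverse strand, Pdia6 at chr12:17266471-17266529, Calr at chr8:84847055-84847113 on the reverse strand and Canx at chr11:50325780-50325838 on the reverse strand (all GRCm38.p6, each written 5′ to 3′ on the strand of the gene).
Hspa5: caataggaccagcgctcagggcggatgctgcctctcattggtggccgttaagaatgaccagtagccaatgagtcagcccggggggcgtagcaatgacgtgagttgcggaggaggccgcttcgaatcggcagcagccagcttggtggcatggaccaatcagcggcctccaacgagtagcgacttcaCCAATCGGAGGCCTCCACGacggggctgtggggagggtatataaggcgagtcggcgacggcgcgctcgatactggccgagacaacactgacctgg
Hsp90b1: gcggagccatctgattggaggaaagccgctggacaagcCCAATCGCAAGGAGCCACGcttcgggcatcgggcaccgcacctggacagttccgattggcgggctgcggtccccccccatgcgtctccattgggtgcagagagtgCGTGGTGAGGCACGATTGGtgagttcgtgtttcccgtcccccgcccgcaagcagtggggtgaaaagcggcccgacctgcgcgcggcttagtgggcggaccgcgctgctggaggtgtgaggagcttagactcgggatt
Pdia6: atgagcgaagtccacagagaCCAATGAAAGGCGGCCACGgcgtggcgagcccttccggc
Calr: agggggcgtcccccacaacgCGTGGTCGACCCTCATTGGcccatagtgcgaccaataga
Canx: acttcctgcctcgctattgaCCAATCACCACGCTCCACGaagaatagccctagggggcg
Hsp90b1 held 2 copies, 1 on each strand, and the others 1. In the 300-base promoter windows, the element was found for 37 of 27025 gene symbols (0.137%) and for 13 of the 6362 symbols measured across these cells (0.204%). Of those 13, which include Hspa5 itself, 4 were among the 10 genes with the highest rank correlation with Hspa5 (Hsp90b1, Pdia6, Calr and Canx), and the other 8 ranked between 65 and 5849. These 8 were Xlr3a (rho 0.16), Creld2 (0.09), Dnajc3 (0.08), Zfp57 (0.08), Xlr3c (0.05), Syvn1 (0.03), Hnrnpa3 (-0.03) and Pan2 (-0.03). Creld2, for example, is itself a gene of the unfolded protein response. In bulk, Hsp90b1 fell by 0.57 ± 0.09 and Pdia6 by 0.75 ± 0.10 from day 0 to day 1 (edgeR adjusted p = 5.6e-05 and 6.8e-06), while Hspa5 did not pass the test (-0.22 ± 0.16, edgeR adjusted p = 0.28). Calr (-0.20), Canx (-0.19) and Creld2 (-0.06) did not pass either (edgeR adjusted p = 0.19, 0.18 and 0.80).

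**Figure D5:**
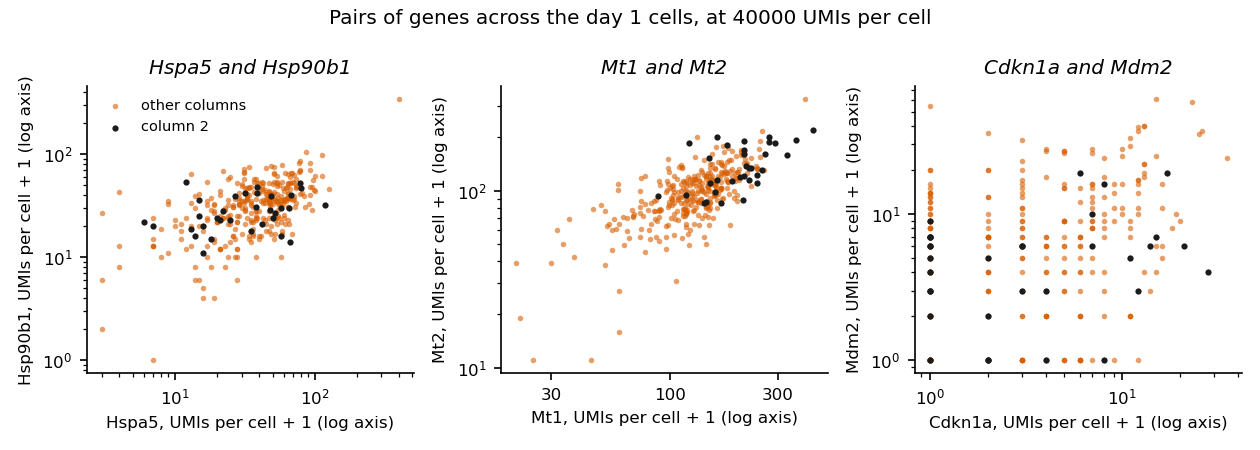
UMIs per cell of Hspa5 and Hsp90b1, Mt1 and Mt2, and Cdkn1a and Mdm2 across the 356 cells of day 1 at 40000 UMIs per cell, with 1 added to each value and both axes logarithmic. Black points are the 33 cells of capture column 2, which lie high for Mt1 and Mt2 and within the other cells for the other pairs. The rank correlations are 0.51, 0.69 and 0.37.

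Mt1 and Mt2, the metallothioneins, which bind zinc and copper, formed the pair with the closest relation of those examined outside mitochondrial RNA. They had 3393 and 2523 CPM on day 1, and their rho was 0.69 on day 1, 0.70 on day 0 and 0.76 on day 2. The 33 cells of column 2 had 5294 CPM of Mt1, where the other columns ran from 2985 to 3720.1, and without them rho was 0.67. The other partners of Mt1 weakened without that column, for example Rpl39 from 0.31 to 0.19. Both genes are known to respond to metals through short promoter elements bound by Mtf1, and their promoters are shown over the same window with the core of that element, TGCACNC or TGCGCNC on either strand, in capitals (GRCm38.p6, Mt1 chr8:94178839-94179118 and Mt2 chr8:94172368-94172647).
Mt1: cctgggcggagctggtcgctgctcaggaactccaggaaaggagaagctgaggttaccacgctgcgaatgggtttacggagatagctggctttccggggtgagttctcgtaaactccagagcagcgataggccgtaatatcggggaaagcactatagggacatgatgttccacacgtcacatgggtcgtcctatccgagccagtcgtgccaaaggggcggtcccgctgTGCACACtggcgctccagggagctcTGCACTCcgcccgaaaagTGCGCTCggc
Mt2: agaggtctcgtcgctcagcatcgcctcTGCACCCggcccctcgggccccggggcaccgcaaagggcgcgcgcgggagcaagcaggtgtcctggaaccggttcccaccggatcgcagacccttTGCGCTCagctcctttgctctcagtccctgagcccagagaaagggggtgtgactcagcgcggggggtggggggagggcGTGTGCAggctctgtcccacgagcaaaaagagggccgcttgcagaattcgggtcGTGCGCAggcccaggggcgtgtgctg
The core occurs 3 times in the Mt1 and 4 times in the Mt2 window. It is short, and 28.2% of gene symbols hold at least 1 copy in their window, but 2.27% hold 3 or more (4.09% of the symbols measured in these cells). In bulk, Mt1 had 327, 326 and 402 CPM on day 0, 621, 811 and 580.5 on day 1 and 499, 549 and 499 on day 2, and rose by 0.93 ± 0.18 to day 1 (edgeR adjusted p = 2.6e-04). Mt2, with 437, 395 and 633 CPM on day 0 and 549.8, 679 and 683 on day 1, did not pass the test (0.38 ± 0.19, edgeR adjusted p = 0.12), but did with the replicate number as a block (edgeR adjusted p = 0.045).

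Partners of Cdkn1a, which fell between days 0 and 1 in bulk, were ranked in the same way. The closest partners of Cdkn1a were Plk2 (rho 0.37), Mdm2 (0.37), Trp53inp1 (0.36) and Ddit4l (0.35), followed by Dhx16, Ccng1, Btg2 and Mdm4. Several of these are known targets or regulators of p53, but a fixed list of p53 targets was not examined for correlation. Cdkn1a and Mdm2 had a rho of 0.17 on day 0 and 0.43 on day 2, and Cdkn1a was found in 62.6% of day 1 cells. Lefty1 and Lefty2, neighbouring genes and Nodal targets, had a rho of 0.39 (0.41 without column 2), although they were found in only 16.6% and 21.6% of cells. Rpph1 ran with Rprl3 (rho 0.53, and 0.51 without column 2), an Rpph1-like gene with which it may share reads, so that pair is uncertain. The mitochondrial ribosomal RNAs mt-Rnr1 and mt-Rnr2 had a rho of 0.78, with or without column 2. Their UMIs exceeded the 1024 tags in 271 and 339 of the 356 cells, so this rho is one between limited counts and is uncertain. The mitochondrially encoded list summed to 9483 CPM in column 2 and to between 12791 and 16100.3 CPM in the other columns.

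Reads from introns gave a further view of the marker genes. In the tables that separate unspliced from spliced UMIs, 13.2% of all UMIs of day 1 cells were unspliced, against 10.7% on day 0 and 10.97% on day 2. Dnmt3a went from 26.1% unspliced on day 0 (exact binomial 95% interval 24.3 to 27.9%) to 7.73% on day 1 (7.30 to 8.17%) and 5.46% on day 2. Its unspliced UMIs rose from 605 to 1130 and its spliced UMIs from 1713 to 13494 between days 0 and 1. Esrrb had 13.4%, 11.7% and 18.1% on the same days, and Dnmt3b 4.69%, 4.95% and 3.16%. Lef1 remained at 45.5% on day 1 against 43.9% on day 0.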

How the data were processed

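The single-cell tables were deposited by the authors as UMI counts per gene and cell (C1-HT 3′-end libraries with 5-base UMIs, aligned with STAR 2.5.2b to mm10), with further deposited count tables by allele and by splicing state. The bulk table holds read counts per gene, deposited by the authors without normalization. Members and lists were chosen with earlier results of these data known. Single-cell values are sums per 1000000 UMIs outside ERCC rows, cells were thinned at random to 40000 UMIs for comparisons between cells, folds use a floor of 3 UMIs over the group, and a fold needed 1.5. No doublet caller was run, and sites that imaging showed to hold several cells were not removed, except in the alternative of cells retained in the study's own list. Cells of 1 culture are not replicates, so no p was taken from them.

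Bulk genes were tested with edgeR 4.0.16 (R 4.3.3, TMM, filterByExpr, quasi-likelihood, 2-sided, Benjamini-Hochberg) on all 15 TX1072 libraries, and the script was checked on simulated counts. The main fit had day as its only factor, and the replicate number entered as a block only in an alternative fit. Same-numbered replicates are parts of 1 differentiation, which the main fit does not use. The median correlation of their deviations was 0.126 (over 0.1 in 17 of 30 pairs), against -0.07 for other numbers (1 of 60 pairs). Genes were named by fixed ranks: the 4 markers, the members with most UMIs of each list (every naive and formative member with 10 CPM), the 15 most variable, the extremes of the correlation with the naive sum, the highest and lowest against days 0 and 2 with 20 CPM, and, after values were seen, the co-varying pairs. Promoters were taken from RefSeq (GRCm38.p6), in which 130 of 189 named genes had an entry, and gene positions from GENCODE M21. Days 3 and 4 entered the bulk spread and the checks of UMI counts, and the deletion lines were not used here. Values of 1 gene are not reported here.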

Additional observations from a re-analysis of the deposited data

Results flagged for a closer look

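Over the 10 capture columns of day 1, 42 groups of column values (markers, most variable genes and lists) were checked for a column far from the others, and chance flags about 1 in 20 such groups. In column 2, Rpph1 reached 489 CPM where the others ran from 192 to 301, Mt1 reached 5294 CPM where the others ran from 2985 to 3720.1, mt-Nd1 was at 2417 CPM where the others ran from 3335 to 4273, and the mitochondrially encoded list summed to 9483 CPM where the others ran from 12791 to 16100.3. Column 3 had 416 CPM of Dnmt3a, where the others ran from 280.2 to 323, and 26.7 CPM of the fibroblast list, where the others ran from 42.0 to 57.9. Sycp1 was at 139.9 CPM in column 6, where the others ran from 43.3 to 85.5. The primitive endoderm list summed to 143 CPM in column 1, where the others ran from 85.2 to 116.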

How the results depend on the processing

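The counts of bulk genes called on day 1 against day 0 stayed within 1.5 times of 4444 higher and 4419 lower under all 11 alternatives, and between 3937 and 4362 higher and 3624 and 4309 lower when 1 library was left out. For day 2 against day 1, leaving out a library gave 3026 to 3583 higher and 3056 to 3451 lower, against 3827 and 3576. The CPM of the 4 markers on day 1 moved by less than the spread between columns under all 14 alternatives (among them another UMI minimum, thinning, the cells retained in the study and each column left out). With the replicate number as a block, no call among the 189 genes named by rank or chosen for their values was lost, and 9 were gained, among them Id3, Mt2, mt-Cytb and mt-Nd4 for day 1 against day 0 and Hspa5 for day 2 against day 1. Among the other members of the lists, 1 call was lost (Hand1) and 14 were gained. The block also raised the mitochondrially encoded genes called lower on day 1 from 1 to 5 of 8. In the single cells that list went the other way, from 11712 CPM on day 0 to 14366 on day 1. Of its 7 members with 10 CPM, 0 were more than 1.5-fold higher and 0 more than 1.5-fold lower. Signs turned only for genes near 0 UMIs: the log2 ratio of day 1 to day 2 of Tmem92 was 0.0067 at a minimum of 60000 UMIs and 0.024 in cells retained in the study, and that of day 1 to day 0 of Zfp352 was -0.13 after thinning. Leaving out 1 library also ended the day 1 against day 0 calls of Bambi, Dab2, Dqx1, Gm5662, Hmmr, Lefty1, Mycn, Nkd2, Sox2 and mt-Co1. For day 2 against day 1 it ended those of Canx, Dnajb1, Dqx1, Etv5, Evx1, Ffar3, Foxd3, Id3, Lefty2, Map2, Pim1 and Tcstv3. DESeq2 in place of edgeR, no low count filter or a fit of the 2 compared days alone also ended the calls of some of these genes. Genes above a relative Fano factor of 2 numbered 59 to 105. Groups of UMIs limit all values of low genes in the single cells.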
